A study of Mus musculus with 45 samples.

Results

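The miR-30 family was followed in small RNA sequencing of alveolar macrophages (AM), the resident phagocytes of the air spaces. The family was taken as 8 mature miRNAs chosen by name: mmu-mir-30a-5p, mmu-mir-30b-5p, mmu-mir-30c-5p, mmu-mir-30d-5p, mmu-mir-30e-5p, mmu-mir-30a-3p, mmu-mir-30e-3p and mmu-mir-30c-2-3p. All 8 were listed in each of the 6 deposited tables (1 per genotype and sex), out of 476 miRNAs listed in any table and 206 listed in all 6. No filter on low values removed a member.

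The AM came from lung lavage of 45 C57BL/6 mice aged 12 weeks, 21 males and 24 females. The 3 genotypes were SP-A-KO mice (KO), which lack the mouse surfactant protein A gene, and humanized transgenic mice, made on that KO background (C57BL/6J in the study's methods), that carried either human SP-A2 (variant 1A0) or both human SP-A1 and SP-A2 (6A2/1A0, called co-ex). Each mouse breathed filtered air (FA) or ozone (O3) for 3 h and recovered for 18 h before lavage, and the estrous cycle of the females was synchronised. Each genotype and sex had 4 FA and 4 O3 mice, except SP-A2 males with 3 and 3 and co-ex males with 4 FA and 3 O3. No group carried the mouse SP-A gene, so KO is the control for the transgenes and no group represents the wild type. The promoter that drives the transgenes is not given in the sources used here.

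miRNAs are short RNAs that guide Argonaute proteins to messenger RNAs, chiefly through the seed, bases 2 to 8 counted from the 5′ end. A precursor hairpin is cut into a duplex whose arms are called 5p and 3p, and usually a single arm is kept while its partner is degraded. In the miR-30 family the 5p arms share their seed and are the abundant products, and the 3p arms have other seeds. The family is expressed in many tissues, lung included, and is known for repressing Beclin 1, a protein that starts autophagy, and for holding epithelial cells in the epithelial state.

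The sequences show at which bases members differ, and they group the members by seed. Of the 8 members, 6 had a mature sequence in the RefSeq annotation of GRCm38.p6, printed 5′ to 3′ with the seed in capitals.
mmu-mir-30a-5p: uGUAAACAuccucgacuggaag
mmu-mir-30e-5p: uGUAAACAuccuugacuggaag
mmu-mir-30c-5p: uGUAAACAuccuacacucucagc
mmu-mir-30a-3p: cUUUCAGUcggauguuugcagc
mmu-mir-30e-3p: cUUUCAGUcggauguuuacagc
mmu-mir-30c-2-3p: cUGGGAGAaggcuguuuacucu
The members not printed are mmu-mir-30b-5p and mmu-mir-30d-5p. The seed GUAAACA was shared by the 3 printed 5p members and by no other listed miRNA with a sequence in that annotation. The seed UUUCAGU was shared by mmu-mir-30a-3p and mmu-mir-30e-3p. The seed UGGGAGA of mmu-mir-30c-2-3p was shared with 1 other listed miRNA, mmu-mir-30c-1-3p.

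The closest relatives in sequence differ by a single base. Counted from 1 at the 5′ end, mmu-mir-30a-5p and mmu-mir-30e-5p differed by C13U, with 21 of 22 bases identical, and mmu-mir-30a-3p and mmu-mir-30e-3p differed by G18A, again with 21 of 22 identical. How many mismatches the authors' matching allowed is not given in the sources used here, so reads of each such pair may have been assigned to either partner. mmu-mir-30c-5p matched mmu-mir-30a-5p at 17 of the 22 bases compared, the first difference being at position 13.

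The members with a sequence come from 4 hairpins at 2 loci in GRCm38.p6. On chromosome 1, Mir30a lies at chr1:23272269-23272339 on the plus strand with no overlapping annotated gene. Mir30c-2 lies at chr1:23291701-23291784 on the plus strand, 19361 bases downstream, in an exon of the lincRNA Gm27028. On chromosome 4, Mir30c-1 at chr4:120769534-120769622 and Mir30e at chr4:120772606-120772697 lie 2983 bases apart in introns of Nfyc, a transcription factor subunit gene, all on the minus strand. The annotated miRNA gene Mir30f spans the same bases as Mir30e on the plus strand. Mature mmu-mir-30c-5p can come from both Mir30c-1 and Mir30c-2, so its reads sum 2 loci. The build used by the authors is not given in the sources used here.

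The libraries held between 137965 and 2884013 reads on the listed miRNAs, with a median of 766213. Median depth differed between FA and O3 groups, for example with 1083876 reads in FA mice against 457456 in O3 mice among KO males, and 556848.5 against 1146973 among co-ex females. The deposited values are reads divided by a factor of each mouse, set within each table of 1 genotype and sex. These normalized values were therefore compared only within a table. For levels across the 45 mice, the reads were recovered and scaled together with TMM factors to counts per 1000000 reads (CPM). No label names a preparation batch, and each genotype and sex stands alone in its table, so genotype, sex and an unlabelled batch cannot be told apart in levels.

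The libraries also differed in markers of other cells between FA and O3. The summed normalized value of the listed epithelial markers ranged from 839 to 10537 in FA mice and from 4360.3 to 25717 in O3 mice, and the group median was higher after O3 in 6 of 6 tables. For mesenchymal markers the ranges were 646 to 9837 and 4070.4 to 23955, again higher after O3 in 6 of 6 tables. Averaged over the tables, 7 of 8 tested epithelial markers (12 in the list) and 7 of 7 tested mesenchymal markers (10 in the list) were higher after O3 at an adjusted p below 0.1. Over all 206 miRNAs tested, 25.7% passed in either direction, 41 of them higher. In the same average the 6 macrophage and myeloid markers had a median log2 difference of -0.09. Their summed value ranged from 5264 to 162813 in FA mice and from 8201 to 157622 in O3 mice. Its group median was higher after O3 in 2 of 6 tables, with O3 to FA ratios of 0.39 to 1.23. Within single tables, 1 of the 6 was called lower in SP-A2 males and 1 in SP-A2 females. The listed erythroid markers summed to between 2007 and 603614 in FA mice and between 1310.3 and 516284 in O3 mice. Endothelial markers were listed in 3 tables, where their summed value had group medians of 5.23 after FA and 260.0 after O3 in SP-A2 males (1 of 2 called higher, mmu-mir-126a-5p being at 0 in all FA mice), 0 and 127 in SP-A2 females, and 0 and 193 in KO males. The part of these cell mixtures in the results given here was not tested.

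A single member held most of the family's reads. mmu-mir-30d-5p had a median of 70536 CPM over the 45 mice, with a lowest mouse of 36241 and a highest of 122328, and ranked 2 of the 206 miRNAs. It held a median of 7.33% of all reads on listed miRNAs, from 3.36% to 12.5%, and the 8 members together held 8.56%, from 3.93% to 14.0%. Within the reads of the 5 5p members, its share was 87.5% at the median and between 66.8% and 94.5% in single mice.

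The other 5p members formed a middle tier. mmu-mir-30a-5p had a median of 4275 CPM (1219.7 to 14589), mmu-mir-30c-5p of 2909.8 (1215 to 7119) and mmu-mir-30e-5p of 2905 (537 to 12251), at ranks 33, 42 and 43. mmu-mir-30d-5p exceeded mmu-mir-30a-5p in 45 of 45 mice, whereas mmu-mir-30a-5p exceeded mmu-mir-30c-5p in 32 of 45 and mmu-mir-30c-5p exceeded mmu-mir-30e-5p in 21 of 45. The order of the last pair therefore did not hold from mouse to mouse. mmu-mir-30b-5p was lower, with a median of 424 CPM (67.6 to 1616, rank 89), and was below mmu-mir-30e-5p in 44 of 45 mice. Per mouse, mmu-mir-30d-5p outnumbered mmu-mir-30b-5p by a median of 165-fold, with a range of 35.3 to 1226. Mature miRNAs are of nearly the same length, so reads compare their numbers, but ligation efficiency differs between sequences and was not measured.

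The 3p members were scarce. mmu-mir-30a-3p had a median of 138 CPM with 7 mice at 0 and a highest of 529, and mmu-mir-30e-3p a median of 66.2 with 8 mice at 0 and a highest of 358. mmu-mir-30c-2-3p had a median of 50.7 CPM with 7 mice at 0 and a highest of 647. They stood at ranks 141, 177 and 183 of 206. The 3 together made up 0.320% of the family's reads at the median and 1.25% at most. Their order was not stable: mmu-mir-30a-3p was above mmu-mir-30e-3p in 25 mice with 4 equal, and mmu-mir-30e-3p above mmu-mir-30c-2-3p in 24 with 2 equal. In the 38 mice with reads for mmu-mir-30c-2-3p, the ratio of mmu-mir-30a-3p to it had a median of 1.98. Another 3 passenger strands with a miR-30 name were listed in part of the tables, mmu-mir-30b-3p in 2, mmu-mir-30c-1-3p in 4 and mmu-mir-30d-3p in 1, with highest normalized values of 94.5, 249 and 23.5.

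**Figure D1:**
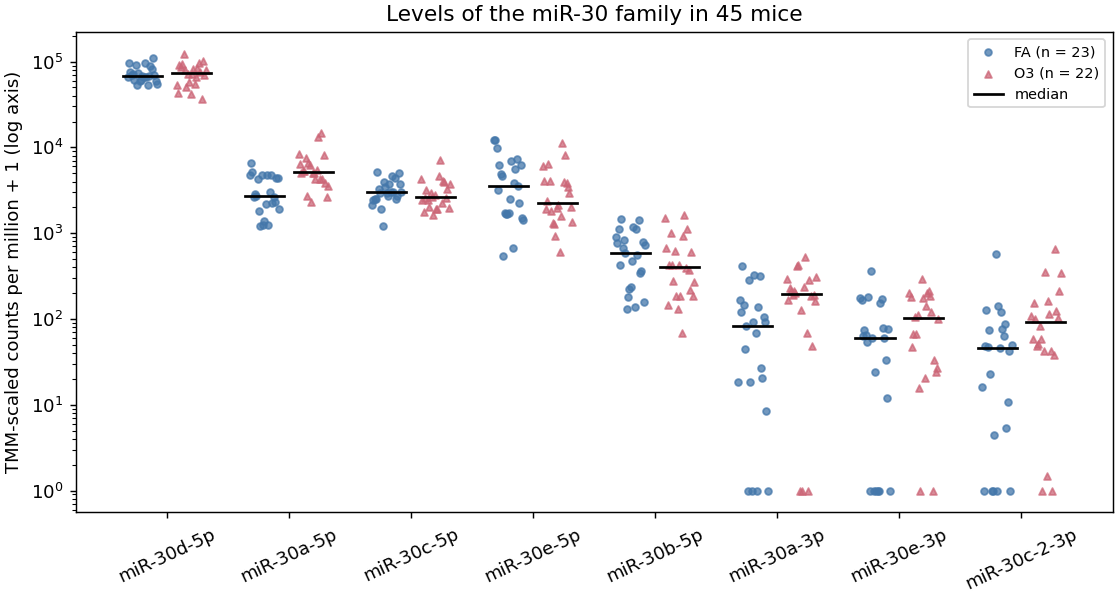
Level of each miR-30 member in the 45 mice, in TMM-scaled CPM on a log axis, with 1 added, FA and O3 mice drawn apart and the median marked. mmu-mir-30d-5p stands above every other member in 45 of 45 mice, and the 3p members reach 0 in 7 or 8 mice each.

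The comparison of FA with O3 addresses which miRNAs in AM differ 18 h after ozone. mmu-mir-30a-5p was the single member called by limma in the average over the 6 tables, where it was 2.08-fold higher after O3. The 3p members had larger fitted differences, from 2.31-fold to 3.19-fold, with wider intervals, and were not called. The difference between members was not tested. In SP-A2 males the normalized values of mmu-mir-30a-5p were 4356, 5941 and 4479 after FA and 7902, 6205 and 5062 after O3. Among SP-A2 females they were 1910.0, 2201, 2079 and 3409 after FA and 5510.4, 4171, 6780.2 and 2346 after O3. In each of these tables, 1 O3 mouse lay inside the FA range and the others above it. In a bulk sample, fewer cells of a type and less RNA per cell cannot be told apart.

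In co-ex males mmu-mir-30a-5p was at 2137, 868, 4481 and 1118 after FA and at 7337, 5356 and 2472 after O3. In co-ex females it was at 1291, 1751, 3838 and 1177 after FA and at 4637, 3984, 4467 and 5329.7 after O3. The females' groups did not overlap, and among the males FA mouse 3 was higher than the lowest O3 mouse. In KO males the values were 2316, 3982, 1514 and 2254 after FA against 14114, 4191, 15754 and 4199 after O3. In KO females they were 1731, 3077, 3574 and 1626 against 8140.1, 2996, 2202 and 2784. All 4 KO male O3 mice were above every FA mouse, 2 of them by a small margin, while in KO females only O3 mouse 1 was above the FA mice. Of all listed miRNAs, 7.93% did not overlap between exposures in co-ex females and 8.84% in KO males. On these normalized values, 16 of 22 O3 mice over all tables exceeded the highest FA mouse of their own table and 0 were below the lowest. On the TMM-scaled CPM the co-ex female and KO male groups overlapped. Co-ex female FA mouse 3 was at 4725 CPM and O3 mouse 3 at 4250. KO male FA mouse 2 was at 4717 CPM, and O3 mice 2 and 4 were at 4275 and 4261.

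The means of mmu-mir-30a-5p went from 4925 ± 882 (SD, n = 3) to 6389.7 ± 1429 (n = 3) for male SP-A2 mice and from 2399.7 ± 683 (n = 4) to 4702 ± 1898 (n = 4) for female SP-A2 mice. They went from 2151 ± 1648 (n = 4) to 5055 ± 2446 (n = 3) for male co-ex mice and from 2015 ± 1241 (n = 4) to 4604 ± 557 (n = 4) for female co-ex mice. In KO males they went from 2517 ± 1043 (n = 4) to 9564 ± 6236 (n = 4), and in KO females from 2502 ± 973 (n = 4) to 4030.4 ± 2760.2 (n = 4). In KO females the SD after O3 exceeded the difference of the means.

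**Figure D2:**
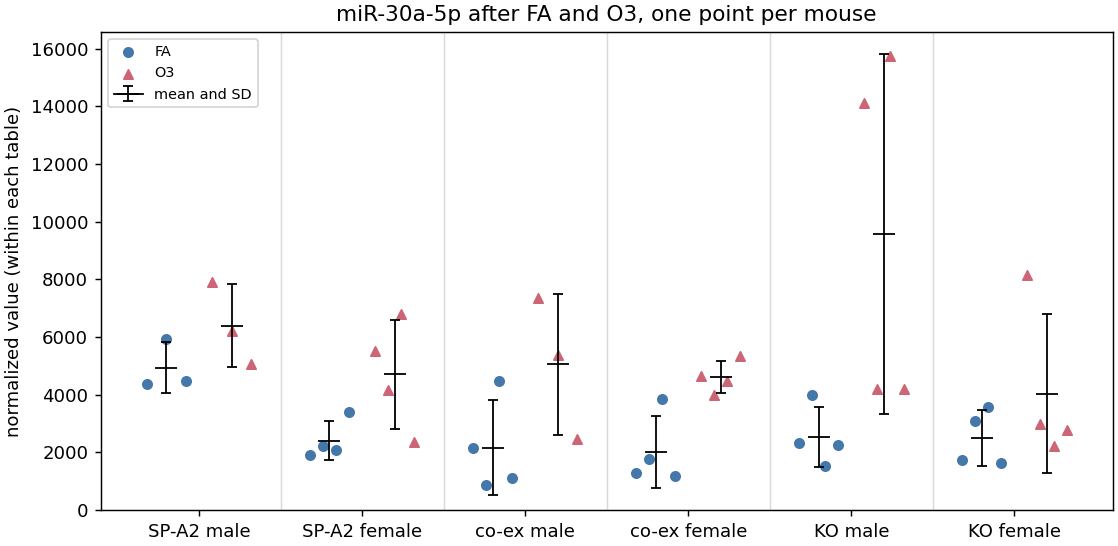
Normalized value of mmu-mir-30a-5p in each mouse, by table and exposure, with the group mean and SD as bars. Of the 22 O3 mice, 16 lie above the highest FA mouse of their own table on this scale. On the TMM-scaled CPM the co-ex female and KO male groups overlap.

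Tested within each table with limma on log2(normalized value + 1), mmu-mir-30a-5p did not pass an adjusted p of 0.1 in any. Its log2 differences (O3 minus FA) were 0.37 (SE 0.35, adjusted p = 0.630) for male and 0.90 (SE 0.36, adjusted p = 0.298) for female SP-A2 mice, and 1.40 (SE 0.68, adjusted p = 0.881) for male and 1.36 (SE 0.51, adjusted p = 0.242) for female co-ex mice. In KO males it was 1.74 (SE 0.52, 95% interval 0.61 to 2.87, adjusted p = 0.104) and in KO females 0.57 (SE 0.50, adjusted p = 0.763). KO males came closest, and there other settings fell on both sides of the threshold, with adjusted p from 0.0494 to 0.166. It was also called in KO males without FA mouse 2 (1.99, adjusted p = 0.0601), O3 mouse 2 (2.04, adjusted p = 0.0913) or O3 mouse 4 (2.04, adjusted p = 0.0256), and in co-ex females without FA mouse 3 (1.72, adjusted p = 0.0884). In KO females the difference was 0.16 without O3 mouse 1.

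Averaged over the 6 tables in a single limma fit of the 12 groups and 206 shared miRNAs, mmu-mir-30a-5p was higher after O3 by a log2 value of 1.05 (SE 0.21, 95% interval 0.63 to 1.48, adjusted p = 0.000232). The difference was above 0 in 6 of 6 tables. The median miRNA of a single table was itself between -0.29 (KO males) and 0.64 (co-ex males). Relative to the median of its own table, mmu-mir-30a-5p was at 0.19 (male) and 0.72 (female) in SP-A2 mice. In the same order it was at 0.75 and 1.05 in co-ex mice and at 2.03 and 0.12 in KO mice. It was the single member called, against 25.7% of the 206 miRNAs (53, of which 41 higher and 12 lower), so 1 of 8 is not a larger share than the background. The median miRNA stood at 0.19, and mmu-mir-30a-5p was 0.87 above it. Over 14 other settings, which included edgeR, DESeq2, other scalings and each table left out, its log2 difference was between 0.87 and 1.19 and it was called in all, with adjusted p of at most 0.0045. Leaving out each of the 45 mice gave 0.99 to 1.13, called every time. The summed epithelial and mesenchymal markers were also higher after O3 in the same 6 tables, and their part in this difference was not tested.

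The other 5p members did not pass the threshold. mmu-mir-30c-5p had a mean log2 difference of 0.08 (SE 0.17, 95% interval -0.26 to 0.42, adjusted p = 0.822), above 0 in 3 of 6 tables. mmu-mir-30d-5p, the most abundant member, had 0.14 (SE 0.12, interval -0.10 to 0.37, adjusted p = 0.468). For mmu-mir-30e-5p it was -0.24 (SE 0.22, interval -0.69 to 0.20, adjusted p = 0.512) and for mmu-mir-30b-5p -0.24 (SE 0.34, interval -0.93 to 0.44, adjusted p = 0.724). The intervals of all 4 lie below the interval of mmu-mir-30a-5p, but the difference between members was not tested. The sign for mmu-mir-30c-5p and mmu-mir-30d-5p turned under edgeR scaling, to -0.09 and -0.03.

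The 3p members had larger fitted differences with wide errors, and each was at 0 in 7 or 8 mice. mmu-mir-30c-2-3p had a mean log2 difference of 1.68 (SE 0.80, interval 0.06 to 3.29, adjusted p = 0.142) and was above 0 in 6 of 6 tables. Its normalized values did not all go that way: in co-ex males the mean was 130 ± 257 (SD, n = 4) after FA and 36.3 ± 33.0 (n = 3) after O3, and in KO males the median was 55.0 after FA and 42.1 after O3. mmu-mir-30a-3p had 1.55 (SE 0.84, interval -0.15 to 3.26, adjusted p = 0.201) and mmu-mir-30e-3p 1.21 (SE 0.71, interval -0.23 to 2.64, adjusted p = 0.246), each above 0 in 5 of 6 tables. None of the 3 passed the threshold with all mice and 1 added. With a pseudocount of 10, mmu-mir-30a-3p (1.29) and mmu-mir-30c-2-3p (1.16) were called, both at an adjusted p of 0.0708, and with the replicate block mmu-mir-30c-2-3p was called (2.02, adjusted p = 0.0873). Over the 14 other settings the difference was 0.99 to 2.07 for mmu-mir-30c-2-3p, 1.00 to 1.92 for mmu-mir-30a-3p and 0.36 to 1.71 for mmu-mir-30e-3p, the lowest of the last without the co-ex female table. mmu-mir-30a-3p passed when co-ex male O3 mouse 3, co-ex female O3 mouse 2 or KO male O3 mouse 2 was left out. mmu-mir-30c-2-3p passed without co-ex male FA mouse 4, co-ex male O3 mouse 2, co-ex female O3 mouse 2 or KO male O3 mouse 2, and mmu-mir-30e-3p without KO male O3 mouse 4. Over the 8 members the median log2 difference was 0.60 with 6 above 0, over the 5p members 0.08, and over all 206 miRNAs 0.19.

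**Figure D3:**
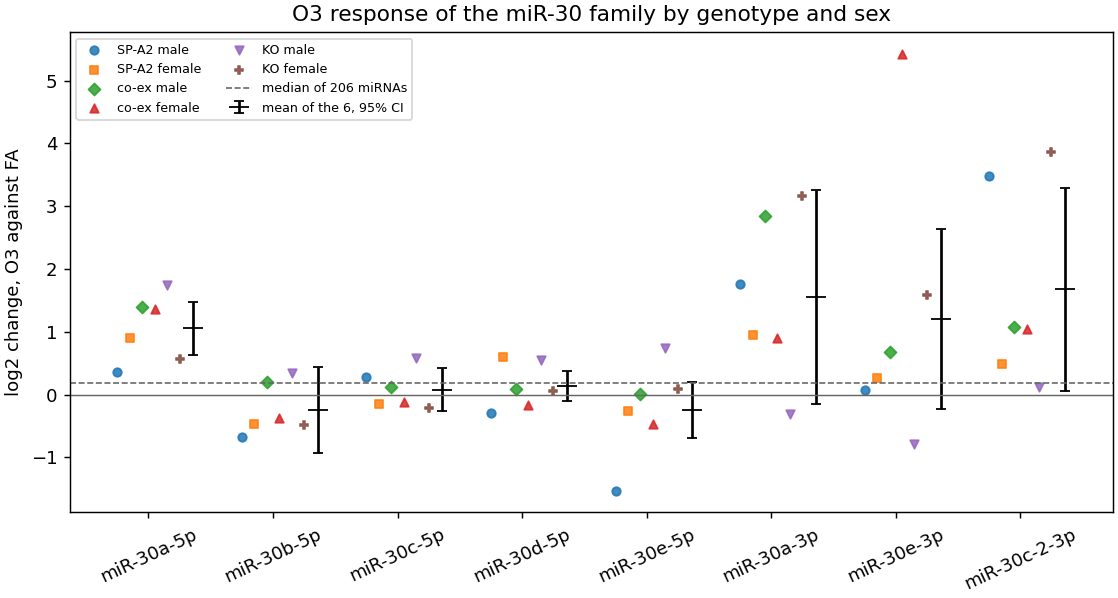
Log2 difference (O3 minus FA) of each member in each of the 6 tables and averaged over them, with 95% intervals of the mean response from limma. mmu-mir-30a-5p is above 0 in 6 of 6 tables, and the intervals of the 3p members are the widest.

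Within each single table limma called 0 of 8 members, against 0.67% (male) and 1.07% (female) of the miRNAs listed for SP-A2, 0% (male) and 1.38% (female) for co-ex, and 5.18% (male) and 0% (female) for KO. In that order, 2, 1, 0, 2, 1 and 1 members had an unadjusted p below 0.05. edgeR on the recovered reads called 0 members in each table. DESeq2 called mmu-mir-30e-5p in SP-A2 males (-1.44, adjusted p = 0.0590) and mmu-mir-30a-5p in KO males (1.67, adjusted p = 0.0501), and 0 elsewhere.

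For mmu-mir-30e-5p the exposures stood apart in SP-A2 males. Its normalized values were 11162, 10837 and 8466 after FA and 5779.6, 3897 and 1887 after O3, means of 10155 ± 1472 and 3854 ± 1947 (SD, n = 3 each). Every O3 mouse was below every FA mouse. In this table of 3 against 3 mice, 22.3% of the 448 listed miRNAs likewise did not overlap, in either direction. The log2 difference of -1.53 (SE 0.44, interval -2.51 to -0.55, adjusted p = 0.134) did not pass the threshold with all mice, and did so without O3 mouse 1 (-1.89, adjusted p = 0.0561) or O3 mouse 3 (-1.09, adjusted p = 0.0700). The single-base relative mmu-mir-30a-5p had a difference of 0.37 in these same mice.

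In the other tables mmu-mir-30e-5p overlapped between exposures. The SP-A2 female mice were at 2254, 4713, 3733 and 3716 after FA and 2448, 5018, 3605 and 1578 after O3. KO males were at 2912, 4692, 4998 and 3012 against 11917, 3916, 8894 and 3821, with O3 mice 1 and 3 above the FA mice, the same 2 mice that were highest for mmu-mir-30a-5p. KO females were at 1708, 4298, 1222 and 1238 against 3474, 2258, 1683 and 1053. Here FA mouse 2 was the highest of the table. Co-ex males had 632, 1236, 1580.3 and 1534 after FA and 1481, 1102 and 1005 after O3, and co-ex females had 1567, 2009, 5659 and 628 against 1821, 1667, 636 and 1544. Log2 differences outside SP-A2 males were between -0.48 and 0.74.

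**Figure D4:**
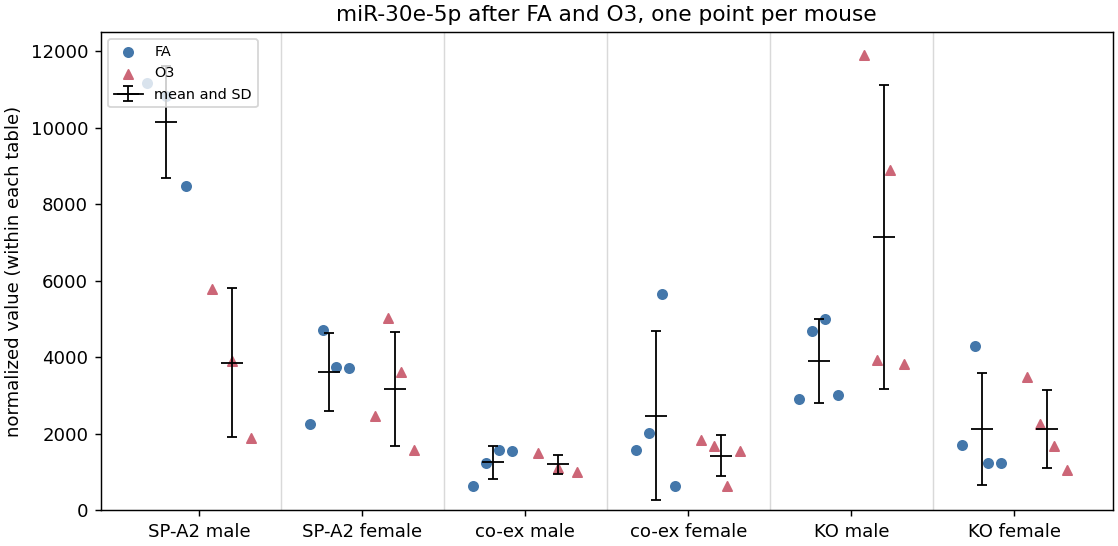
Normalized value of mmu-mir-30e-5p in each mouse, by table and exposure, with the group mean and SD as bars. The SP-A2 male FA mice, at 8466 to 11162, are above all 3 O3 mice of that table, and the groups of the other tables overlap. In SP-A2 males 22.3% of all listed miRNAs do not overlap.

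The balance between the single-base relatives is given as a description with no test. The ratios to mmu-mir-30e-5p and of mmu-mir-30d-5p given here were not planned, and both include mmu-mir-30a-5p, the member called higher after O3. The ratio of mmu-mir-30a-5p to mmu-mir-30e-5p had a median of 0.795 in FA mice and 2.07 in O3 mice, and the table medians were higher after O3 in 6 of 6 tables. They went from 0.529 to 1.59 in SP-A2 males, from 0.848 to 3.00 in co-ex females and from 0.772 to 1.14 in KO males, with no overlap between the exposures. In SP-A2 females (0.702 to 1.68), co-ex males (1.78 to 4.86) and KO females (1.16 to 1.83) the mice overlapped. This ratio is taken within a mouse and does not depend on the mouse's scaling factor, but it does depend on how the authors' matching assigned reads that differ at 1 base.

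The share of mmu-mir-30a-5p in the 5p reads had a median of 3.40% (1.56% to 6.78%) in FA mice and 5.52% (3.19% to 16.1%) in O3 mice. It was higher after O3 in 5 of 6 tables, the exception being KO females (4.08% and 3.72%). The ratio of mmu-mir-30d-5p to mmu-mir-30a-5p had medians of 25.1 after FA and 16.2 after O3 and was lower after O3 in 5 of 6 tables. The planned ratio of mmu-mir-30d-5p to mmu-mir-30b-5p had medians of 122 after FA and 203 after O3. The other planned ratio, mmu-mir-30a-3p to mmu-mir-30c-2-3p, had medians of 2.29 and 1.74 in mice with reads for the latter. The share of the whole family in the listed reads was higher after O3 in 3 tables and lower in 3, without overlap only in KO males.

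Counted by mice that do not overlap between exposures, 3 members stood apart in SP-A2 males, mmu-mir-30e-5p below and mmu-mir-30a-3p and mmu-mir-30c-2-3p above, against 22.3% of the miRNAs listed there. No member did among SP-A2 females (5.09% of listed miRNAs) or co-ex males (7.26%). In co-ex females 1 did, mmu-mir-30a-5p, against 7.93%. In KO males 2 did, mmu-mir-30a-5p and mmu-mir-30d-5p, against 8.84%, and in KO females 1, mmu-mir-30c-2-3p, against 4.18%. These counts are on the normalized values. On the TMM-scaled CPM, mmu-mir-30a-5p overlapped in co-ex females, and both mmu-mir-30a-5p and mmu-mir-30d-5p overlapped in KO males.

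For mmu-mir-30d-5p, which carries most of the family's reads, the exposures stood apart in KO males on the normalized values. There it was at 41115, 57190.5, 60673 and 70053 after FA and at 71262, 81749.7, 104570.0 and 73987 after O3. All 4 O3 mice were above the FA mice, yet the log2 difference of 0.54 (SE 0.33, adjusted p = 0.439) did not pass. On the TMM-scaled CPM the exposures overlapped in KO males. There FA mice 3 and 4 were at 89368.5 and 82904.1 CPM, and O3 mice 1 and 4 at 66711.7 and 75081.4. In SP-A2 females the normalized values were 49993, 55237, 46460.3 and 72764 against 89212, 74223, 109497 and 67689, with a difference of 0.60 (SE 0.29, adjusted p = 0.461) and 1 O3 mouse below FA mouse 4. In the other tables the differences were between -0.29 and 0.09.

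mmu-mir-30b-5p and mmu-mir-30c-5p overlapped between exposures in every table. In KO males mmu-mir-30c-5p was at 3508, 2567, 2976 and 2122 after FA and at 7605, 2189, 4332 and 3943 after O3, its largest difference (0.58, SE 0.41, adjusted p = 0.507). O3 mouse 2 was within the FA range. mmu-mir-30b-5p had its largest difference in SP-A2 males, -0.68 (SE 0.71, adjusted p = 0.675), with 812, 695 and 963 after FA and 1423, 637 and 145 after O3. Here O3 mouse 1 was above and the other 2 below the FA mice.

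The passenger strands that stood apart did so at low values. mmu-mir-30c-2-3p in SP-A2 males was at 13.9, 0 and 41.1 after FA and at 103, 54.8 and 151 after O3, a log2 difference of 3.48 (SE 1.34, adjusted p = 0.219). In KO females it was at 7.38, 28.8, 0 and 42 against 124, 79.4, 173 and 269.9, a difference of 3.86 (SE 1.80, adjusted p = 0.628). In both tables every O3 mouse was above every FA mouse. mmu-mir-30a-3p in SP-A2 males was at 15.7, 147 and 103 against 279, 158 and 226, a difference of 1.77 (SE 0.82, adjusted p = 0.298). mmu-mir-30e-3p in co-ex females was at 21.5, 0, 0 and 0 after FA and at 158, 15.6, 148 and 192 after O3. Its fitted difference of 5.42 (SE 2.21, adjusted p = 0.278) depends on the value of 1 added before the logarithm, and O3 mouse 2 was below FA mouse 1.

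The arm ratio follows which strand of a precursor is found. The mean O3 response of the log2 ratio of 5p to 3p was -0.50 (SE 0.80, adjusted p = 0.737) for miR-30a and -1.45 (SE 0.70, interval -2.86 to -0.04, adjusted p = 0.190) for miR-30e. Neither passed, against 16.7% of 30 arm pairs. For miR-30e the call was gained without co-ex male FA mouse 2, co-ex male O3 mouse 2 or KO male O3 mouse 4. The ratios rest on 3p values that are 0 in 7 or 8 mice.

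Whether the response to O3 depended on sex or genotype was tested as a difference of responses. By limma 0 of 8 members were called for female minus male (0% of 206 miRNAs), SP-A2 minus KO (0%), co-ex minus KO (0.971%) and SP-A2 minus co-ex (0.485%). At an unadjusted p below 0.05 the member counts were 0, 1, 0 and 0, and edgeR and DESeq2 called 0 in each. The genotype contrasts share groups with each other. For mmu-mir-30a-5p the differences of log2 responses were -0.22 (interval -1.07 to 0.62), -0.52 (-1.55 to 0.52), 0.22 (-0.79 to 1.24) and -0.74 (-1.79 to 0.31), and the lowest bound was that of SP-A2 minus co-ex. The single member below an unadjusted 0.05 was mmu-mir-30e-5p in SP-A2 minus KO, at -1.31 (SE 0.54, interval -2.40 to -0.22), with an adjusted p of 1.00.

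Levels after FA were compared between genotypes on the TMM-scaled CPM, and mmu-mir-30e-5p separated SP-A2 from co-ex in nearly all mice. Its values were 12251, 12117 and 9731 CPM for SP-A2 males and 3146, 6154, 4924 and 4655 for SP-A2 females. In co-ex males they were 537, 1737, 1673 and 1687 and in co-ex females 1697, 2526, 6965 and 666. All SP-A2 mice were above all co-ex mice except co-ex female 3, which was above the 4 SP-A2 females and below the 3 SP-A2 males. In KO males the values were 3813, 5558, 7362 and 3565 and in KO females 2253, 6163, 1506 and 1437, between and overlapping both.

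Medians after FA in SP-A2 (7 mice), co-ex (8) and KO (8) were 6154, 1692 and 3689 CPM for mmu-mir-30e-5p. For mmu-mir-30a-5p they were 4269, 1607 and 2850.5, and for mmu-mir-30b-5p 826, 229 and 638. mmu-mir-30c-5p (2530.2, 3000.3 and 3406) and mmu-mir-30d-5p (72120.3, 66003 and 69142) had medians closer together. mmu-mir-30e-3p was at 0 in 5 of 8 co-ex FA mice, with medians of 73.9, 0 and 67.6.

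Between SP-A2 and co-ex, 4 of 8 members were called higher in SP-A2 by limma, against 41.7% of the 206 miRNAs (86, of which 67 higher), a share near the background. They were mmu-mir-30e-5p (log2 difference 2.13, SE 0.41, interval 1.31 to 2.96, adjusted p = 0.000235), mmu-mir-30a-5p (1.05, SE 0.35, adjusted p = 0.0146), mmu-mir-30b-5p (1.51, SE 0.59, adjusted p = 0.0406) and mmu-mir-30e-3p (4.28, SE 1.25, adjusted p = 0.00663). The median miRNA was itself at 1.02, so relative to it mmu-mir-30a-5p was at 0.03, mmu-mir-30b-5p at 0.49, mmu-mir-30e-5p at 1.12 and mmu-mir-30e-3p at 3.26. mmu-mir-30c-5p (0.04) and mmu-mir-30d-5p (0.18) were not called and stood at -0.98 and -0.84 relative to that median. Under edgeR the median miRNA was at 0.02 and the overall split was 32 higher of 53 called, and mmu-mir-30b-5p (1.23, adjusted p = 0.131) and mmu-mir-30e-3p (2.13, adjusted p = 0.194) were not called. Without co-ex female FA mouse 4, mmu-mir-30b-5p was not called (1.27, adjusted p = 0.102), and without co-ex male FA mouse 2, mmu-mir-30a-3p was.

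Of the cell type markers, 6 of 8 tested epithelial, 3 of 7 mesenchymal and 4 of 6 macrophage and myeloid markers were called higher in SP-A2 than in co-ex. Over all 206 miRNAs 41.7% were called in this contrast (86, of which 67 higher), and the mesenchymal share is near that. The part of the markers in the difference was not tested. As genotype is also the table, a preparation batch and the genotype cannot be told apart.

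Against KO, 0 members were called for SP-A2 by limma (2.91% of 206 miRNAs) and 0 for co-ex (10.2%), with 1 and 2 members at an unadjusted p below 0.05. For co-ex, edgeR and DESeq2 also called 0 members. Both contrasts use the same KO mice. mmu-mir-30e-5p was at 1.09 (SE 0.41, adjusted p = 0.177) in SP-A2 and at -1.04 (SE 0.39, adjusted p = 0.100) in co-ex. For SP-A2, DESeq2 called 1 member and edgeR 0, and mmu-mir-30e-5p was called when KO female FA mouse 2 was left out (1.33, adjusted p = 0.0620). For co-ex it lay at the threshold, with adjusted p from 0.0213 to 0.332 over the 45 leave-one-out fits. It was called in 13 of them: without co-ex male FA mouse 2 or 3, co-ex female FA mouse 2 or 3 or O3 mouse 3, KO male O3 mouse 1, 2 or 4, KO female FA mouse 3 or 4 or O3 mouse 4, SP-A2 male O3 mouse 3 or SP-A2 female O3 mouse 2. The O3 mice and the SP-A2 mice enter this contrast through the shared spread and leave its value at -1.04. mmu-mir-30e-3p was at -2.85 (SE 1.20, adjusted p = 0.145) in co-ex and was called without co-ex male FA mouse 2 (-3.67, adjusted p = 0.0394) or 3, co-ex female FA mouse 1, KO male O3 mouse 4 or KO female FA mouse 4. mmu-mir-30a-5p was at -0.62 (SE 0.33, adjusted p = 0.254) and was called without co-ex male FA mouse 3 (-0.84, adjusted p = 0.0880). All 8 members were below 0 in co-ex minus KO, where the median miRNA was at -0.62.

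Between the sexes, with the genotypes averaged, limma called 0 members after FA and 0 after O3, and 0% of the 206 miRNAs in both. At an unadjusted p below 0.05 there were 0 members and 14 miRNAs after FA and 0 members and 9 miRNAs after O3, and edgeR and DESeq2 called 0 members. The female minus male log2 difference of mmu-mir-30a-5p was -0.24 (interval -0.80 to 0.33) after FA and -0.39 (interval -0.97 to 0.19) after O3.

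**Figure D5:**
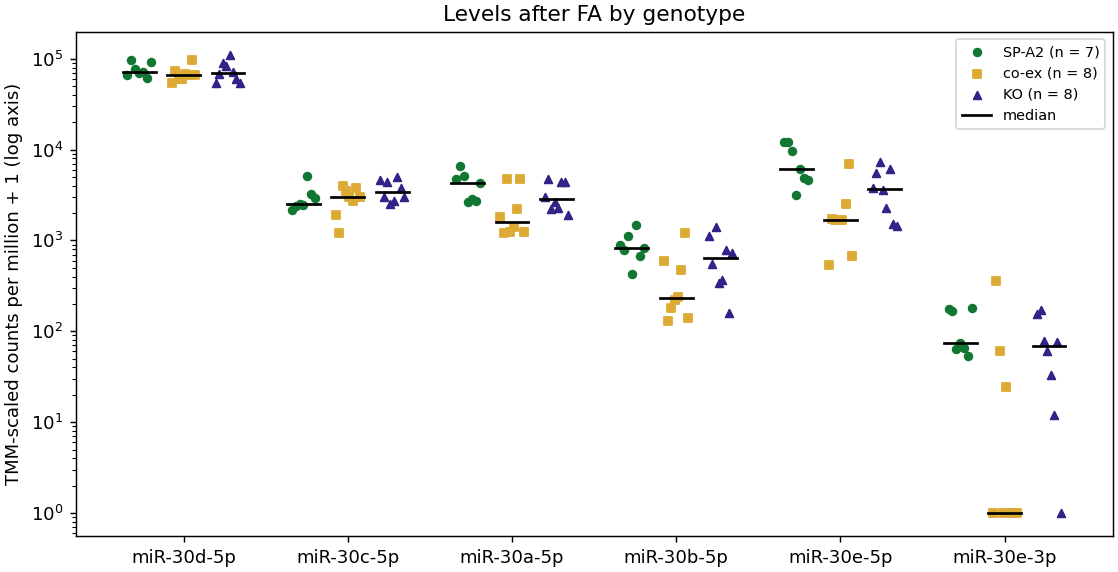
Level of the 5p members and mmu-mir-30e-3p after FA in each mouse of the 3 genotypes, in TMM-scaled CPM with 1 added on a log axis, with the median marked. For mmu-mir-30e-5p the medians are 6154 (SP-A2), 1692 (co-ex) and 3689 (KO), while mmu-mir-30d-5p is at 66003 to 72120.3.

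Other broadly expressed families with several loci give a scale for these values. In the mean O3 response, 2 of 9 let-7 members were called higher and 1 lower (median 0.07), 3 miR-29 members had a median of 0.14 and 1 of 3 tested miR-181 members was called lower (median -0.32). Between SP-A2 and co-ex after FA, 1 of 9 let-7 members was called higher and 4 were called lower (median -0.66). There, 3 of 3 miR-29 members were called higher (median 5.01), and 0 of 3 tested miR-181 members were called (median 0.20). Over all 206 miRNAs, 25.7% were called in the mean O3 response and 41.7% between SP-A2 and co-ex after FA.

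The 5p members other than mmu-mir-30d-5p varied together between mice of the same group. With the group means removed, Spearman's rho over the 45 mice was between 0.44 and 0.63 for pairs among mmu-mir-30a-5p, mmu-mir-30b-5p, mmu-mir-30c-5p and mmu-mir-30e-5p, and between -0.18 and 0.01 for mmu-mir-30d-5p with each of them. The median over the 10 pairs was 0.461, beside 0.030 over all pairs of the 206 miRNAs. The miRNAs whose level was most like the summed log2 level of the 5 5p members, among 201 compared, were mmu-mir-26a-5p (0.746), mmu-mir-7a-5p (0.681), mmu-mir-26b-5p (0.662), mmu-mir-200b-3p (0.657) and mmu-mir-22-3p (0.628). Among these, mmu-mir-200b-3p is also in the list of epithelial markers, and the part of the cell mixtures here was not tested. The points share library, depth and scaling, and no test was made.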

How the data were processed

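Total RNA of AM was made into libraries with the NEXTflex Small RNA kit and sequenced on an Illumina HiSeq. Per the labels and methods, the authors called bases with CASAVA and tested expression with edgeR and TCC. The aligner, miRNA reference and genome build are not given in the sources used here. The deposited values are a normalized signal: the authors divided the reads on each miRNA by a factor of each mouse, separately in each of the 6 tables (1 genotype and sex each). The deposited tables also hold a p-value, a q-value and a rank from the authors' own comparisons, which were not used, and 0 columns of mice were unmapped.

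The values of each mouse were whole reads times a constant (100% of values, relative tolerance 1e-06), so reads were recovered and their totals gave the depth. Intervals cover the spread between mice, which are separate animals. Tests used limma 3.58.1 (R 4.3.3, trend) on log2(value + 1), without a low-value filter, two-sided, with Benjamini-Hochberg adjustment over all miRNAs fitted and calls at an adjusted p below 0.1. Fold changes are on that scale, which compresses differences between low values above 0, and for members with mice at 0 they depend on the 1 added. Levels between tables used TMM-scaled CPM of the 206 miRNAs in all tables. Alternatives were edgeR 4.0.16 and DESeq2 1.42.0 on recovered reads, pseudocounts of 0.1 and 10, a minimum of 10, other scalings, a replicate block and each mouse left out. The fits were tested on simulated data. Same-numbered FA and O3 mice did not pair: over 22 pairs their deviations correlated between -0.138 and 0.271, with 6 above 0.1.

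The members, comparison families and markers were chosen with earlier results of these data known. The genes named were the 8 members, other rows with a miR-30 name, listed miRNAs with the seed of mmu-mir-30a-5p, and the 5 miRNAs most correlated with the summed 5p level. Other miRNAs are named only where a result turns on them.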

Additional observations from a re-analysis of the deposited data

Results flagged for a closer look

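In 9 of 72 groups of 4 mice (8 members in 9 groups), 1 mouse lay further from the rest than Dixon's 95% limit, where chance gives about 1 in 20, or 3.6. In 8 the mouse was high and in 1 low. For mmu-mir-30a-5p, KO female O3 mouse 1 was at 8140.1, with the others between 2202 and 2996. For mmu-mir-30d-5p, KO female FA mouse 1 was at 82984, with the others between 46829.7 and 49191. For mmu-mir-30e-5p, KO female FA mouse 2 was at 4298, with the others between 1222 and 1708.

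The other 6 concern 3p members at low values. For mmu-mir-30a-3p, co-ex male FA mouse 2 was at 202 (others 0 to 16.4). For mmu-mir-30e-3p, SP-A2 female FA mouse 4 was at 144 (others 39.7 to 52.9) and co-ex female FA mouse 1 at 21.5, which is 14 reads (others 0). For mmu-mir-30c-2-3p, co-ex male FA mouse 4 was at 515 or 833 reads (others 0 to 3.29), KO male O3 mouse 4 at 637 or 167 reads (others 0 to 43.7), and KO male FA mouse 4 was low at 3.71 or 4 reads (others 52.1 to 57.9).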

How the results depend on the processing

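The count of members called moved by no more than 1.5 times in 9 of 17 comparisons under the alternatives run. In SP-A2 males DESeq2 called 1 in place of 0 (0 to 1 with a mouse left out). In KO males 1 was called with the low-value filter, DESeq2, plain CPM and the replicate block (0 to 1 with a mouse left out), and in co-ex females 0 to 1 with a mouse left out. For the mean O3 response the count was 3 with a pseudocount of 10 (mmu-mir-30a-3p and mmu-mir-30c-2-3p gained) and 2 with the replicate block (mmu-mir-30c-2-3p gained), against 1 (1 to 3 with a mouse left out). For the level of SP-A2 minus KO it was 1 with DESeq2, median-ratio size factors and plain CPM (0 to 1 with a mouse left out), for co-ex minus KO 2 with a pseudocount of 0.1 (0 to 3), and for SP-A2 minus co-ex 2 with edgeR against 4 (3 to 5). The arm ratio gave 0 to 1 with a mouse left out. The mice that decide these calls are named beside the results.

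Signs turned without passing the threshold for the mean response of mmu-mir-30c-5p (edgeR -0.0854, median-ratio -0.0296, plain CPM -0.0250, KO male table left out -0.0218), of mmu-mir-30d-5p (edgeR -0.0266) and of mmu-mir-30e-5p (SP-A2 male table left out 0.0157), and for the SP-A2 minus co-ex level of mmu-mir-30c-5p (edgeR -0.0103, and -0.12 to 0.17 with a mouse left out, below 0 without SP-A2 female FA mouse 2 or co-ex male FA mouse 1 or 2). The causes were not tested. Leaving out whole tables was added after seeing the data. The replicate block changed no other call. It was not run for levels between tables, where the block cannot be estimated. With 3 or 4 mice a group and as few as 137965 reads in a library, the 95% intervals of the mean response of the 3p members spread over -0.23 to 3.29 on the log2 scale.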
